A study of Mus musculus with 11 samples.

Results

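Endothelial cells and stellate cells are minor cell types of the liver, and 10 microRNAs that are commonly used as marks of them were followed across the livers of mice that overexpress PGC-1β. The endothelial names were mmu-miR-126-3p and mmu-miR-126-5p. The names of stellate cells and fibroblasts were mmu-miR-143, mmu-miR-145, mmu-miR-199a-3p, mmu-miR-199a-5p, mmu-miR-199b, mmu-miR-199b*, mmu-miR-214 and mmu-miR-10b, written below without the species prefix. They were chosen by name, with earlier results of these data known. A single probe reads miR-199a-3p and miR-199b together, so the 10 names correspond to 9 of the 655 probes on the array. All 9 probes were detected on every array and all 9 were tested.

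Total RNA from whole liver was hybridised to an Illumina bead chip for microRNAs, with 1 mouse per array. The 5 WT mice and the 6 transgenic LivPGC-1β mice, which overexpress the transcriptional coactivator PGC-1β selectively in the liver, were all FVB/N, 4 months old and fasted overnight. The sources used here do not give the promoter of the LivPGC-1β transgene or the sex of the mice, and the array does not read the transgene. The question was whether microRNAs of non-hepatocyte cells differed in level between the genotypes. In RNA from whole liver, fewer cells of a type and less of the microRNA in each cell cannot be told apart.

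Liver endothelial cells line the sinusoids, and stellate cells lie between them and the hepatocytes, where they store vitamin A and can turn into matrix-producing myofibroblasts after injury. miR-126 is best known in endothelium, where it sustains the response to VEGF by lowering inhibitors of the pathway such as Spred1. miR-143 and miR-145 are co-transcribed in smooth muscle and other mesenchymal cells and act on the contractile state of these cells. miR-199 and miR-214 are produced in part from a common antisense transcript, Dnm3os, and have been linked to fibrosis. miR-10b comes from a Hox gene cluster, as does its close relative miR-10a.

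The mature sequences show which members could be read as 1 item and which share a seed, the stretch of bases 2 to 8 that pairs with target mRNAs. They are given 5′ to 3′ from RefSeq (build GRCm38.p6), which held a mature sequence for 6 of the 10 names, with the seed in capitals. The entry of miR-10a is added for comparison with miR-10b.
miR-126-3p: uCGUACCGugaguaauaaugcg
miR-199a-3p: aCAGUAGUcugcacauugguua
miR-199b: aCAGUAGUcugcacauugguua
miR-199a-5p: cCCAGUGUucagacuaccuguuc
miR-214: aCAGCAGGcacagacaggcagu
miR-10b: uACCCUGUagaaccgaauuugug
miR-10a: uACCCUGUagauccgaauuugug

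miR-199a-3p and miR-199b were identical over their 22 bases, so no probe could separate them. miR-10b and miR-10a had the same seed and differed by A12U alone, counted from 1 at the 5′ end with the base of miR-10b first. The seed of miR-214 was shared by miR-761, and no other mouse entry at hand had the seed of miR-126-3p or that of miR-199a-5p. miR-126-5p, miR-143, miR-145 and miR-199b* had no sequence there and are named only. The seed of miR-199b*, a member of the same family as miR-199a-5p, could therefore not be compared with that of miR-199a-5p.

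The hairpins lie in or opposite host genes in GRCm38.p6. The hairpin of miR-126 is at chr2:26591357-26591429 within the span of Egfl7, a gene of endothelial cells. miR-199a comes from chr1:162217814-162217923 and from chr9:21496495-21496564, the first inside Dnm3os and opposite in strand to Dnm3, the second opposite in strand to Dnm2. miR-214 at chr1:162223368-162223477 lies 5444 bp from the first of these, also inside Dnm3os. miR-199b at chr2:32318460-32318569 is opposite in strand to Dnm1, and miR-10b at chr2:74726070-74726137 lies within the spans of Hoxd3 and Hoxd4. The hairpins of miR-143 and miR-145 are 1301 bp apart inside the long noncoding RNA Carmn.

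The labelled tissue was checked with lists of marker microRNAs. The 11 hepatocyte microRNAs, the 10 leukocyte microRNAs, the 6 of bile duct epithelium and the 3 of erythroid cells were detected on all arrays. Of 7 striated muscle microRNAs 5 could be tested. WT mouse 1 stood apart in miR-133a, miR-133b, miR-206 and miR-499 but not in miR-208b. The 2 not tested, miR-1 and miR-208a, were each detected on 1 array. They were also highest in WT mouse 1, at 9.88 and 8.71, against at most 8.16 and 8.07 in the other livers. LivPGC-1β mouse 4 was the next highest in miR-133a, miR-133b and miR-206 alone. miR-133a was 13.80 in WT mouse 1, 11.40 in LivPGC-1β mouse 4 and at most 9.85 in the other 9 livers (log2 normalised intensity). The arrays had between 444 and 508 detected probes, and their median intensity ran from 743 to 1036 in WT and from 619 to 871 in LivPGC-1β. WT arrays occupied positions 1 to 5 of the chip and LivPGC-1β arrays the later ones, so position and genotype run together.

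None of the 9 probes differed between LivPGC-1β and WT livers after adjustment over the 493 probes tested (limma with Benjamini-Hochberg adjustment, smallest adjusted p = 0.202). Among all probes tested 2.03% were called, 1.62% as higher and 0.406% as lower. Without adjustment 2 members were higher, miR-143 and miR-214, and 0 were lower, against 10.1% and 2.43% of all probes. The difference was above 0 for 7 members, below 0 for 1 and exactly 0 for 1, and its median was 0.04 on the log2 scale, beside 0.01 over all probes tested. All levels here are log2 intensities after quantile normalization, which gives every array the same distribution of values, so a probe that keeps its rank among the brightest keeps nearly the same value whatever its intensity. The spread of the bright members after normalization is therefore not read as a measure of how much they varied between mice.

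**Figure D1:**
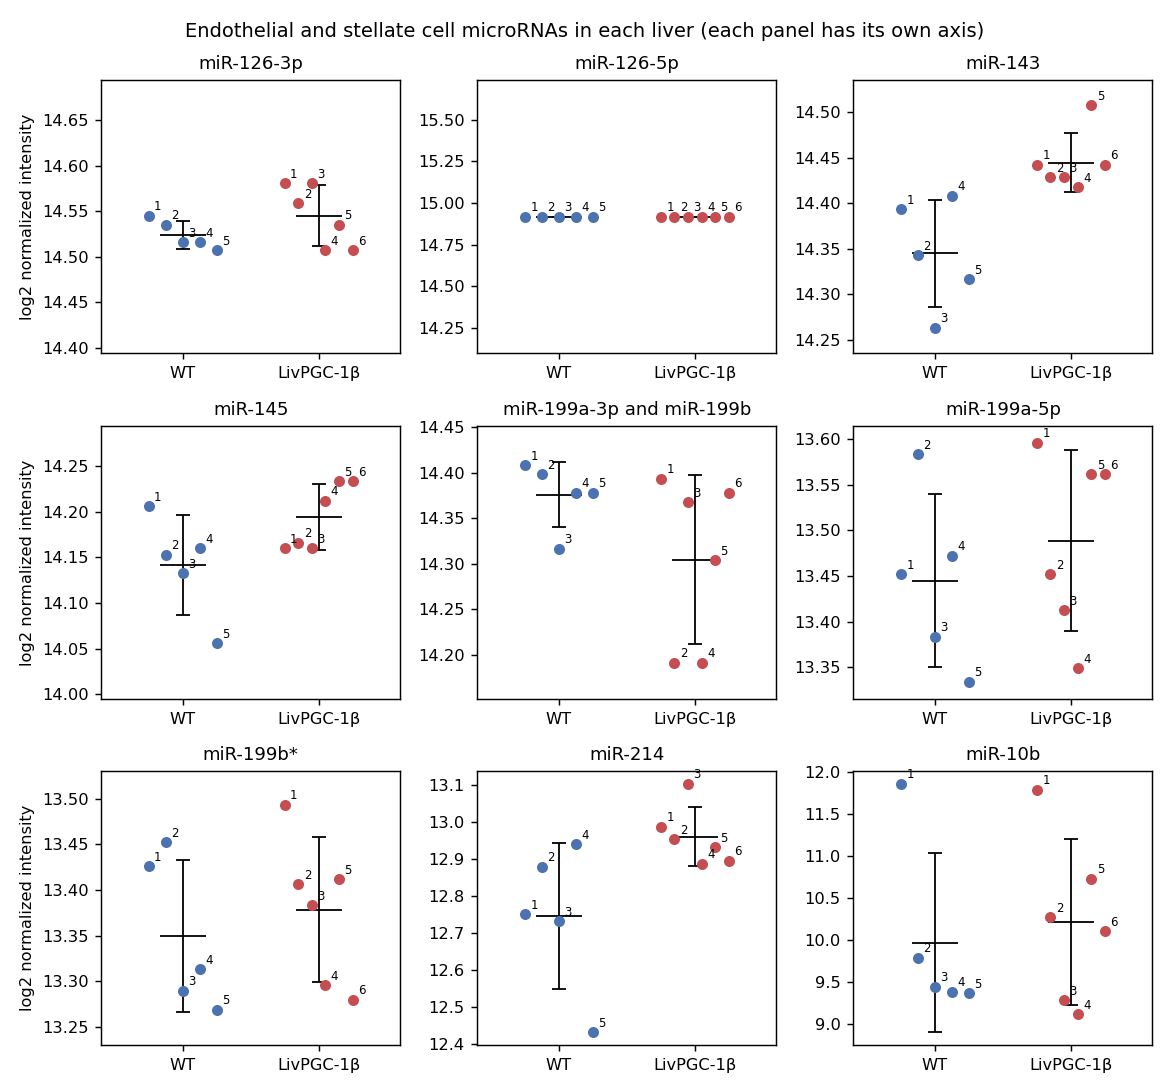
Log2 normalised intensity of each of the 9 probes in 5 WT and 6 LivPGC-1β livers, with the mean and SD of each genotype in black and mouse numbers beside the points. Each panel has its own axis. The genotypes are apart only for miR-143, and miR-10b spans 9.12 to 11.86.

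miR-126-3p, the strand of the endothelial hairpin that targets inhibitors of VEGF signalling, was among the brightest probes, and its intensity before normalization ran from 21560 to 26393. Its normalised values were 14.54, 14.54, 14.52, 14.52 and 14.51 in WT mice 1 to 5. In LivPGC-1β it ran from 14.51 to 14.58 with a median of 14.55. The genotypes overlapped, although 3 of 6 LivPGC-1β mice were above every WT mouse. The difference was 0.02 (SE 0.0255, 95% interval -0.04 to 0.08, adjusted p = 0.739 in limma), and the two-sided exact permutation p was 0.242. The value depended on the scaling, and with each array scaled to its median the difference was 0.20 (95% interval 0.00049 to 0.40, adjusted p = 0.287 in limma).

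miR-126-5p, the other strand of this hairpin, ranked second in intensity on each of the 11 arrays, behind miR-451. Quantile normalization therefore gave it the value 14.92 on every array and a difference of 0. Its intensity before normalization was 32757, 31590, 30501, 31438 and 31601 in WT mice 1 to 5. In LivPGC-1β mice 1 to 6 it was 33692, 28289, 32055, 28779, 28620 and 31395. LivPGC-1β mice 2, 4 and 5 were lower than any WT mouse and mouse 1 was higher. Without normalization the difference was -0.05 (95% interval -0.20 to 0.09, adjusted p = 0.607 in limma). The mean level of both endothelial probes was 14.73 to 14.74 in WT and 14.73 to 14.76 in LivPGC-1β.

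miR-143, which acts on the contractile state of mesenchymal cells, was the only member whose genotypes did not overlap. It was 14.39, 14.34, 14.26, 14.41 and 14.32 in WT mice 1 to 5. In LivPGC-1β mice 1 to 6 it was 14.44, 14.43, 14.43, 14.42, 14.51 and 14.44. All 6 transgenic livers were thus above all 5 WT livers, as was the case for 3.45% of all probes tested, though the nearest values, 14.41 in WT mouse 4 and 14.42 in LivPGC-1β mouse 4, were close. No member had all transgenic livers below all WT livers, against 1.22% of all probes. The difference was 0.10 (1.07-fold, SE 0.033, 95% interval 0.03 to 0.17). It did not pass in limma (p = 0.0128, adjusted p = 0.202), and the exact permutation p was 0.00216, the smallest that 462 splits allow. The order depended on normalization, since without it, or with scaling to the array median, 2 of 6 transgenic livers were above all WT livers.

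miR-145, transcribed with miR-143, had a smaller difference. Its values were 14.21, 14.15, 14.13, 14.16 and 14.06 in WT mice 1 to 5. They ran from 14.16 to 14.23 in LivPGC-1β, with a median of 14.19. The genotypes overlapped, with WT mouse 1 high and WT mouse 5 low. The difference was 0.05 (SE 0.0328, adjusted p = 0.505 in limma, exact permutation p = 0.0736). Its opposite arm miR-145*, a dim probe, had a difference of -0.02 (adjusted p = 0.981 in limma).

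The probe that reads miR-199a-3p and miR-199b was the only one with a difference below 0. It was 14.41, 14.40, 14.32, 14.38 and 14.38 in WT mice 1 to 5. In LivPGC-1β mice 1 to 6 it was 14.39, 14.19, 14.37, 14.19, 14.30 and 14.38. LivPGC-1β mice 2, 4 and 5 were below all WT mice, while the other 3 lay among them. The difference was -0.07 (SE 0.046, 95% interval -0.17 to 0.03, adjusted p = 0.525 in limma, exact permutation p = 0.165). A further probe, which the array lists as miR-199a-3p:9.1, was not low in LivPGC-1β mouse 2 (13.13 against 12.96 to 13.14 in WT) and had a difference of 0.09 (adjusted p = 0.430 in limma).

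miR-199a-5p, from the other strand of the miR-199a hairpins, was 13.45, 13.58, 13.38, 13.47 and 13.33 in WT mice 1 to 5. It ran from 13.35 to 13.60 in LivPGC-1β with a median of 13.51, across nearly the same range. Its difference was 0.04 (SE 0.0587, 95% interval -0.09 to 0.17, adjusted p = 0.773 in limma). miR-199b*, the other strand of miR-199b, was 13.43, 13.45, 13.29, 13.31 and 13.27 in WT mice 1 to 5. It ran from 13.28 to 13.49 in LivPGC-1β with a median of 13.39. Its difference was 0.03 (SE 0.0504, 95% interval -0.08 to 0.14, adjusted p = 0.843 in limma). In both, only LivPGC-1β mouse 1 was above every WT liver.

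miR-214, which lies in Dnm3os with miR-199a, had the second largest difference of the 9 probes, after miR-10b. It was 12.75, 12.88, 12.73, 12.94 and 12.43 in WT mice 1 to 5. In LivPGC-1β mice 1 to 6 it was 12.99, 12.95, 13.10, 12.89, 12.93 and 12.90. WT mouse 5 was low, and 3 of 6 LivPGC-1β mice were above all WT mice. The difference was 0.21 (1.16-fold, SE 0.0841, 95% interval 0.03 to 0.40), which did not pass in limma (p = 0.0289, adjusted p = 0.317), and the exact permutation p was 0.0130. Without WT mouse 5 it was 0.13. Without WT mouse 4, the highest of the WT mice, it was 0.26. It was 0.06 (adjusted p = 0.757 in limma) with LivPGC-1β mouse 4 and WT mice 1, 3 and 5 left out, and 0.04 (adjusted p = 0.818 in limma) without normalization.

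The relatives of miR-214 did not pass the test either. miR-214*, from the same hairpin, had a difference of 0.24 (adjusted p = 0.502 in limma), while miR-761, which has its seed, had a difference of -0.14 (adjusted p = 0.817 in limma). Leukocyte microRNAs were looked at beside miR-143 and miR-214. Over the 10 of them the mean level ran from 13.04 to 13.17 in WT and from 13.18 to 13.26 in LivPGC-1β. The nearest livers, 13.174 in WT and 13.176 in LivPGC-1β, were close. In this mean the brightest probes, miR-142-3p and miR-223, weigh most. How often lists of this size separate the genotypes was not computed. Without adjustment 3 of the 10 were higher, against 10.1% of all probes, namely miR-155 (0.45), miR-146b (0.43) and miR-150 (0.19). The others were miR-181a (0.11), miR-142-5p (0.09), miR-342-3p (0.04), miR-146a (0.02), miR-142-3p (0.02), miR-223 (0.01) and miR-181b (-0.005). The single one called, against 1.62% of all probes called higher, was miR-146b, an NF-κB-induced microRNA (adjusted p = 0.0449 in limma). The paper had reported miR-146b as higher in LivPGC-1β, and the list was chosen with earlier results known, so this call is not an independent result. The part of leukocytes in the values of miR-143 and miR-214 was not tested.

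**Figure D2:**
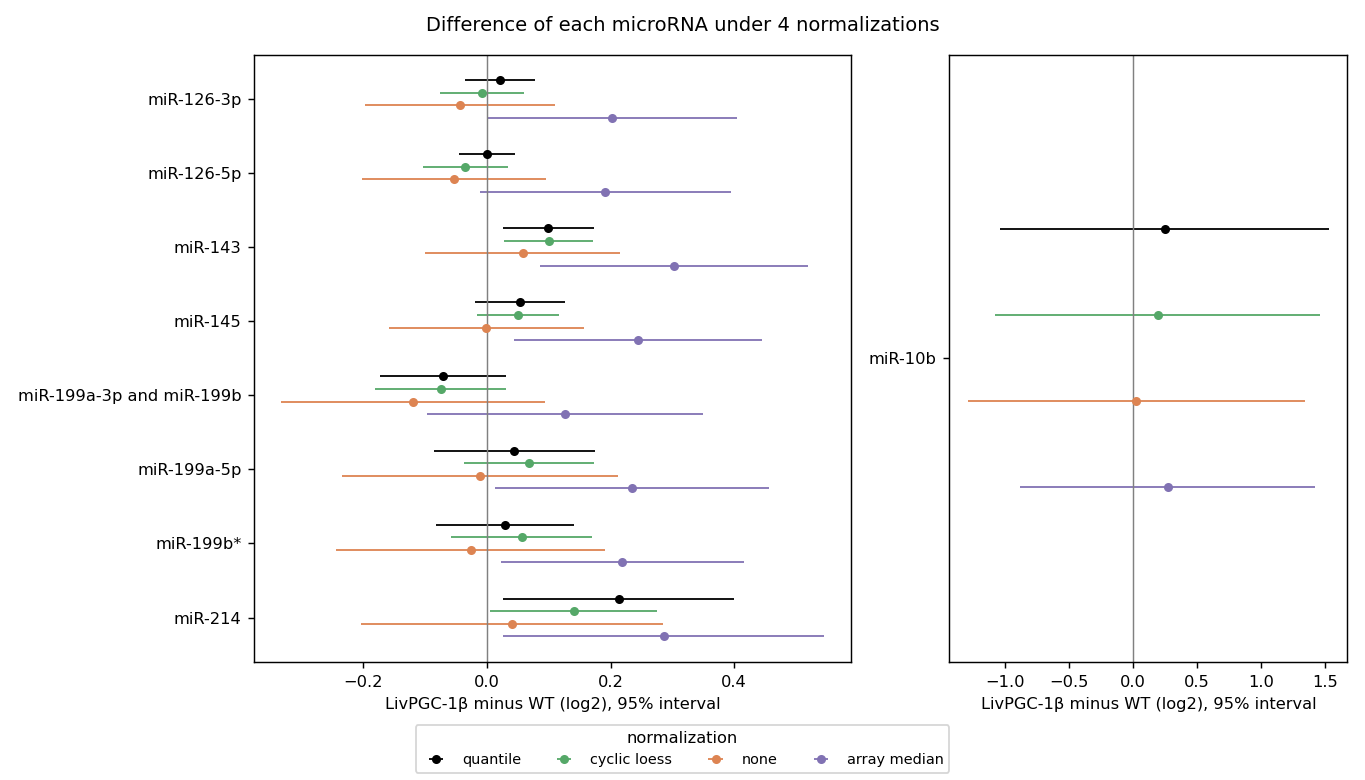
LivPGC-1β minus WT difference in log2 intensity of each microRNA (points) with its 95% interval (bars) under 4 ways of normalizing the arrays, with miR-10b on an axis of its own. Scaling to the array median put all 9 differences above 0, and no normalization left 3 above 0.

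miR-10b differed more between mice than between genotypes. It was 11.86, 9.79, 9.45, 9.39 and 9.37 in WT mice 1 to 5. In LivPGC-1β mice 1 to 6 it was 11.79, 10.28, 9.28, 9.12, 10.73 and 10.11. WT mouse 1 and LivPGC-1β mouse 1 were over 1 log2 unit above all other livers, and the intensities before normalization spanned 510 to 4488, or 8.8-fold. Its SD within genotype was 1.02, the sixth highest of the 493 probes. The difference was 0.25 (SE 0.58, 95% interval -1.04 to 1.53, adjusted p = 0.906 in limma, exact permutation p = 0.690). It was -0.07 without LivPGC-1β mouse 1, the only mouse whose removal turned its direction, 0.72 without WT mouse 1 and 0.40 with both left out.

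Among the 431 probes detected on every array no other had this pattern. WT mouse 1 and LivPGC-1β mouse 1 were picked because miR-10b was highest there, and no other of these probes stood above all other arrays in both. miR-10a, with its single base of difference, is a brighter probe (10720 to 14393 before normalization). It ran from 13.44 to 13.68 over the 11 livers (difference 0.05, adjusted p = 0.652 in limma). miR-10b*, the opposite arm of the miR-10b hairpin, was 9.53 in WT mouse 1 and 9.63 in WT mouse 2, but 9.09 in LivPGC-1β mouse 1, within the 8.88 to 9.16 of the other livers (difference -0.09, adjusted p = 0.792 in limma). Muscle microRNAs were high in WT mouse 1, where the mean level of the tested list was 13.14. In LivPGC-1β mouse 1 miR-133a was 9.35, and LivPGC-1β mouse 4, with the next highest miR-133a, had the lowest miR-10b.

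**Figure D3:**
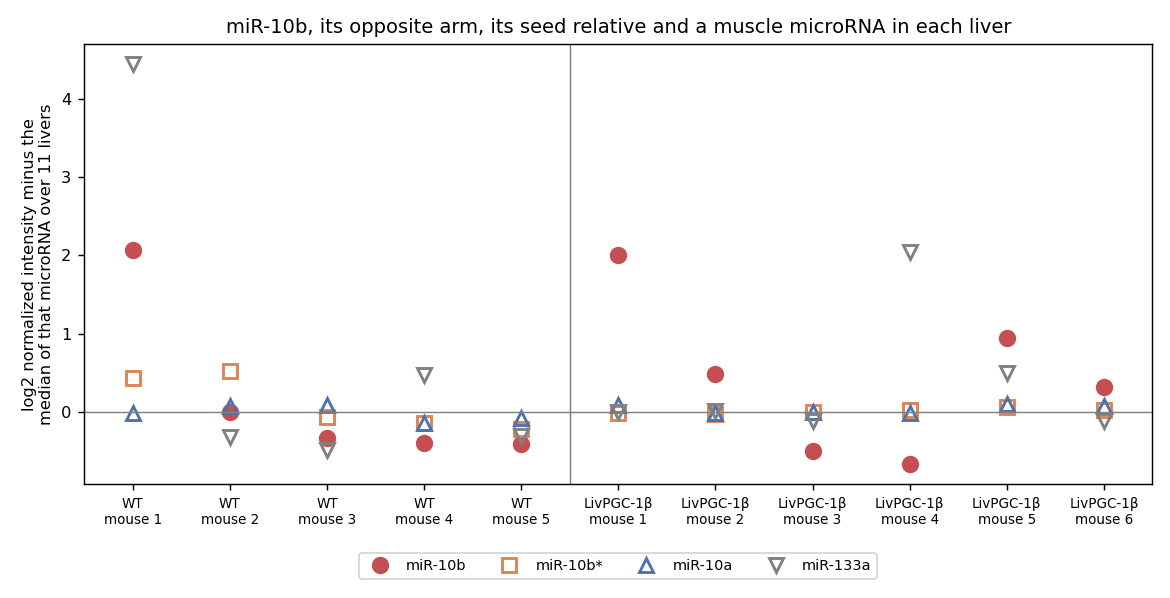
Log2 normalised intensity of miR-10b, miR-10b*, miR-10a and miR-133a in each of the 11 livers, as the difference from the median of that microRNA over all livers. miR-10b is high in WT mouse 1 and LivPGC-1β mouse 1, whereas miR-133a is high in WT mouse 1 and LivPGC-1β mouse 4.

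Members from a common hairpin or transcript, or of the same family, were next compared mouse by mouse, as deviations from the genotype mean in the 11 livers. miR-199a-5p and miR-199b* are of 1 family but come from hairpins on different chromosomes. Whether their probes read each other's strand was not tested. This pair had the highest correlation of the 7 with a value (r = 0.621, exact permutation p = 0.0589, adjusted p = 0.220). Its Spearman rho was 0.606 (exact permutation p = 0.0709, adjusted p = 0.248), and r was 0.308 without the 2 most extreme livers. For miR-143 and miR-145, r was 0.555 (exact permutation p = 0.131, adjusted p = 0.229) and rho was 0.635 (p = 0.0535, adjusted p = 0.248). Without WT mice 3 and 5, r was 0.484. The remaining 5 pairs with a value had r from 0.207 to 0.576 and rho from 0.297 to 0.508, with adjusted p of at least 0.220 for r and 0.269 for rho. None of the 7 pairs passed after adjustment, and these 7 had a median r of 0.456. For miR-126-3p and miR-126-5p no value could be had after normalization.

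The correlations were higher before normalization, where brightness of the array is shared by all probes. There r was 0.969 for miR-126-3p and miR-126-5p and 0.929 for miR-143 and miR-145. Over all 28 pairs of the 8 probes with spread, 27 correlations were above 0 after normalization, from -0.23 for miR-126-3p with miR-145 to 0.81 for miR-126-3p with miR-199b*, with a median of 0.389. All probes of an array share its RNA, its labelling and its place on the chip. The share of correlations above 0 among other probes was not computed. The 27 of 28 is therefore not read as particular to the members.

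**Figure D4:**
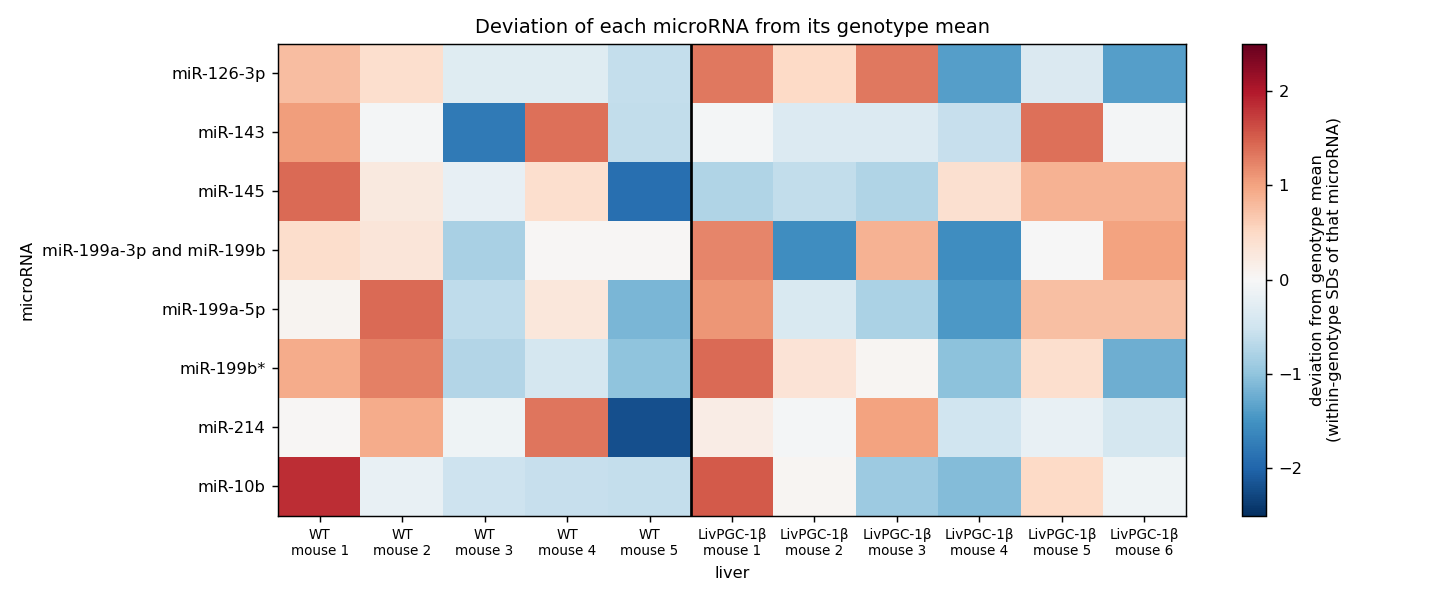
Deviation of 8 microRNAs from their genotype mean in each of the 11 livers, in within-genotype SDs of that microRNA (red above, blue below). WT mouse 1 and LivPGC-1β mouse 1 are mostly above their genotype means, and WT mouse 5 and LivPGC-1β mouse 4 mostly below.

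The mean of these 8 standardized deviations was 0.82 in WT mouse 1 and 0.75 in LivPGC-1β mouse 1, and -0.9995 in WT mouse 5 and -0.89 in LivPGC-1β mouse 4. Of 421 other probes detected on all arrays, the 3 most like this profile over the 11 livers were miR-155 (r = 0.930), miR-193b (r = 0.901) and miR-199a-3p:9.1 (r = 0.899). miR-155, an immune cell microRNA of the leukocyte list, had a genotype difference of 0.45 (adjusted p = 0.307 in limma). For miR-193b the difference was -0.12 (adjusted p = 0.662 in limma).

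Other vascular and fibrosis-linked microRNAs were not called either. Of 14 vascular microRNAs, among them miR-221, miR-222 and the miR-23 and miR-27 families, 0 were called and 0 passed without adjustment, and their median difference was 0.03. Of 18 fibrosis-linked microRNAs 0 were called and the median difference was 0.02. Without adjustment 3 of these were higher and 1 lower, where 10.1% and 2.43% of all probes were. The higher ones were miR-497 (0.25), miR-335-3p (0.21) and miR-150 (0.19), and the lower one was miR-34a (-0.29), a p53-induced microRNA. Hepatocyte microRNAs, with 0 of 11 called, 2 higher and 1 lower without adjustment and a median difference of -0.01, had a mean level of 13.73 to 13.76 in WT and 13.73 to 13.78 in LivPGC-1β. Over the 7 stellate and fibroblast probes the mean level was 13.57 to 13.73 in WT and 13.62 to 13.77 in LivPGC-1β, with overlap.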

How the data were processed

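The deposited values come from Genome Studio, with which the authors exported the mean bead intensity per probe after an iScan reading, without normalization or background subtraction. The deposited table also gives a detection p-value for each probe and array, set against the negative controls of the chip. The intensity values that the authors had quantile normalized were also deposited and served as an alternative. Intensities were quantile normalized over 655 probes and 11 arrays and set on the log2 scale. Testing was limited to the 493 probes whose detection p was at most 0.01 on 5 or more arrays, and used limma 3.58.1 in R 4.3.3, with Benjamini-Hochberg adjustment over all of them and a threshold of 0.05. Single microRNAs also had a two-sided exact permutation test over 462 splits of the mice. Correlations were permuted within genotype (86400 permutations), with adjustment over the 7 pairs that gave a value. A planned pair, miR-199a-3p with miR-199b, shares a probe, so miR-199a-3p:9.1 took the place of miR-199b after this was seen. The mean level of a list is the log2 of the mean normalized intensity of its tested probes. Named microRNAs are all members and their relatives, called members of the lists and the 3 probes most like the members. Other list members were named after their values were seen. The members and lists were chosen with earlier results of these data known. Each array held 1 mouse, so mice are the replicates, and the number of arrays limits the precision. For its p-values limma sets each difference against a variance between mice that is drawn toward that of all probes. The fit was tested on simulated data. Alternatives covered normalization, background, detection filter, variance trend, chip position, the numbers in the labels and left-out mice. Figures were drawn with matplotlib 3.10.9. Sequences and positions are from RefSeq.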

Additional observations from a re-analysis of the deposited data

Results flagged for a closer look

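In 16 groups of values, 1 for each of 8 probes and 2 genotypes, a single liver far from the rest of its genotype was looked for, which chance gives in about 1 of 20 groups. miR-10b in WT mouse 1 was 11.86, and the nearest WT liver was at 9.79, a gap of 0.832 of the whole range. miR-143 in LivPGC-1β mouse 5 was 14.51, and the nearest LivPGC-1β liver was at 14.44, a gap of 0.728 of the whole range.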

How the results depend on the processing

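No alternative called any member, and the lowest adjusted p in limma was 0.0618, for miR-143 with an intensity trend in the variance. Some alternatives called few probes of any kind, so the 0 there says little about the members. Without normalization, and with chip position as a covariate, 0 of all 493 probes were called. With each mouse left out in turn, 3 to 11 of all probes were called higher and 1 to 3 lower. Scaling changed directions. Without normalization, where the median of all probes was -0.14, miR-126-3p was -0.043, miR-145 -0.00087, miR-199a-5p -0.011 and miR-199b* -0.027. With scaling to the array median, where the median of all probes was 0.11, the members' median difference was 0.23 and that of miR-199a-3p with miR-199b was 0.13. All 9 differences were above those medians in both, and 7 of 9 were with quantile normalization. With cyclic loess miR-126-3p was -0.0077. The median correlation of the pairs was 0.893 without normalization and 0.895 with the array median. With LivPGC-1β mouse 4 and WT mice 1, 3 and 5 left out, which stood apart in an earlier analysis, it was 0.167, and miR-199a-5p was -0.011. With each mouse left out in turn, called members stayed at 0, their median difference ran from 0.01 to 0.06, the median correlation from 0.401 to 0.544 and miR-10b from -0.070 (without LivPGC-1β mouse 1) to 0.72 (without WT mouse 1). With chip position as a covariate miR-199b* was 0.23 (adjusted p = 0.572), miR-214 0.40 (adjusted p = 0.599), miR-126-3p 0.09 (adjusted p = 0.667), miR-143 0.09 (SE 0.0694, adjusted p = 0.804) and miR-10b 2.04 (SE 1.01, adjusted p = 0.667), all in limma. The cause of these shifts was not tested. Livers with the same number correlated at -0.13 to 0.07 over the tested probes, which does not settle whether the numbers pair the mice. With the numbers as a replicate block 0 members and 1 of all probes were called (10 without), and the members' median difference was 0.04. There miR-143 was 0.10 (adjusted p = 0.523 in limma), and miR-10b was 0.27 with an SE of 0.266, against 0.58 without the block. Leaving out WT mouse 1 and LivPGC-1β mouse 1 together was chosen after seeing the data. It called 0 members, and of all 485 probes it called 2 as higher and 1 as lower.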

Other observations

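Of the dimmer relatives of the members, miR-10a* was 9.72 in WT mouse 5, 9.24 in LivPGC-1β mouse 4 and 8.60 to 8.86 in the other livers. miR-761, which has the seed of miR-214, was 10.79 in WT mouse 1 and 10.92 in WT mouse 2, and 9.77 to 10.37 in the other livers.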
